A study of Mus musculus with 2 samples.

Results

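The lymphotoxin and noncanonical NF-κB genes Lta, Ltb, Ltbr, Tnfrsf11a, Map3k14, Traf3, Relb and Nfkb2 were followed across the cell classes of the mouse spleen, 8 genes of the 27032 counted. The cells were splenic CD11c+ cells of wild-type mice, enriched with magnetic beads (MACS) and captured on the BD Rhapsody system for single-cell RNA sequencing (scRNA-Seq). The 2 samples, WT1 and WT2 (sample 1 and sample 2 here), hold 3308 and 3085 cells with 46953398 and 43137746 UMIs, which are counts of distinct mRNA molecules, and share 0 cell barcodes. The study asks how B cells and their LTβ maintain the CD169+ marginal metallophilic macrophages (MMMs) and the Langerin+ cDC1s of the marginal zone, and these samples show which CD11c-enriched cells carry the transcripts of the ligand, its receptor and the machinery behind it. Both samples are wild-type and untreated as far as the labels say, so the comparisons are between cell classes and not between conditions. The sources used here do not say how many mice went into a sample, so p-values measure only the spread between these samples, which may be technical.

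Lymphotoxin-α and lymphotoxin-β are TNF family members that form a membrane-bound heterotrimer, which binds the lymphotoxin-β receptor (LTβR, encoded by Ltbr) on stromal and myeloid cells. In resting cells, the adaptor TRAF3 holds the kinase NIK (encoded by Map3k14) at low levels by directing its degradation. Engagement of LTβR, RANK (encoded by Tnfrsf11a) or CD40 releases NIK, NIK drives processing of p100 (encoded by Nfkb2) to p52, and p52 pairs with RelB. Lymphotoxin made by B cells is known for shaping splenic microarchitecture, including marginal zone macrophages, and LTβR signaling is known for maintaining CD8-negative splenic DCs.

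Cells were assigned to 9 classes from the UMIs of 14 genes, each cell going to the first class it matched. The order was macrophages (at least 20 Vcam1 and 5 C1qb UMIs), mature DCs (2 Ccr7 and 1 Fscn1), cDC1s (2 Clec9a and 1 Xcr1), cells with 3 Siglech and 1 Ccr9 UMIs, B cells (3 Cd79a), T cells (2 Cd3e), cells with 1 Ncr1 UMI, DCIR2 cDC2s (2 Clec4a4) and CLEC10A cDC2s (2 Clec10a or Cd209a together). None of the 8 genes was used in this assignment. Of the 2928 and 2725 cells that passed the quality filter, 616 and 602 fell into no class. The classes held 293 and 130 macrophages, 138 and 173 mature DCs, 684 and 570 cDC1s, 556 and 456 DCIR2 cDC2s and 484 and 408 CLEC10A cDC2s in samples 1 and 2. Lymphocytes are a small remainder of a CD11c enrichment and numbered 65 and 172 B cells, 41 and 159 T cells and 38 and 36 Ncr1-gated cells. Levels are given in CPM, the UMIs of a gene per 1000000 UMIs of its class in that sample, and means are ± SD over the 2 samples.

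The classes were checked against markers that the gates did not use. Each marker of the lists for macrophages (10 of 10), B cells (6 of 6), T cells (6 of 6) and NK cells (7 of 7) was highest in its own class, as were 7 of 8 for mature DCs and 5 of 7 for cDC1s. For the DCIR2 and the CLEC10A cDC2s it was 1 of 4 each. The 4 DCIR2 cDC2 markers summed to 1464 and 1443 CPM in the DCIR2 class against 863 and 790 CPM in the CLEC10A class. In mature DCs they summed higher, to 2079 and 1831 CPM. The 4 CLEC10A cDC2 markers summed to 1608 and 2259 CPM in the CLEC10A class and to 3788 and 5597 CPM in macrophages. These sums therefore do not set the cDC2 classes apart from all others. The 13 and 19 Siglech/Ccr9-gated cells had 5 of 7 pDC markers at their highest, with Tcf4 at 1178 and 1882 CPM. They also carried H2-Aa, an MHC class II gene, at 11684 and 14237 CPM (CLEC10A cDC2s 13332 and 13916 CPM) and Irf7, a pDC transcription factor, at 10.7 and 39.7 CPM, so they are called by their gate and not as pDCs. The Ncr1-gated cells carried Itgax at 634 and 764 CPM and Lyz2 at 1153 and 489 CPM beside their NK genes. Itgax was found in 86.8% and 91.7% of these cells, and Lyz2 in only 13.2% and 11.1%. They are likewise called by their gate. Markers of other cells stood out in several places. The 4 erythroid markers summed to 3707 and 907 CPM in macrophages, the 4 plasma cell markers to 7228 and 1315 CPM in B cells, and Cd79a stood at 0 and 68.5 CPM in mature DCs, with Cd3e at 3.78 and 16.5 CPM there. The 6 B-cell markers summed to 710 and 577 CPM in macrophages, and the 8 mature DC markers to 1893 and 1491 CPM in cDC1s. The 6 T-cell markers summed to 697 and 1005 CPM in Ncr1-gated cells, and the 7 NK markers to 274 and 943 CPM in T cells. These places are not a full list. Cells passing several gates numbered 324 and 286.

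Of the ligand genes, Lta (chromosome 17, 35203165 to 35205351, minus strand, GRCm38) lies next to Ltb (chromosome 17, 35194439 to 35196320, plus strand), with 6844 bases between them, and 1157 bases from Tnf. Lta transcripts were found mostly in B cells and mature DCs. In B cells Lta stood at 21.98 CPM in sample 1 and 30.2 CPM in sample 2, and in mature DCs at 28.4 and 21.5 CPM. These ranges overlap, so the order of the 2 classes is not set by these data. T cells followed with 3.22 and 10.6 CPM, below both, and with 5.74 CPM in sample 2 without the 1 cell that held 6 of its 13 UMIs. Macrophages and Siglech/Ccr9-gated cells held 0 Lta UMIs in both samples, and cDC1s held 0 and 3. The 1 and 1 UMIs of CLEC10A cDC2s and the 0 and 1 UMI of Ncr1-gated cells are also at or under the 3 counts that a count of 0 allows.

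The Lta signal rested on few cells. An Lta UMI was found in 9 of 65 and 29 of 172 B cells (13.8% and 16.9%), with no cell above 3 UMIs. Among mature DCs 14 of 138 and 13 of 173 cells had one (10.1% and 7.51%), and there the richest cell held 14 and 10 UMIs and the 10 richest held 91.1% and 93.0% of the UMIs. Background can be read from macrophages, in which 0 of 293 and 0 of 130 cells had an Lta UMI at a median of 19313 and 18136 UMIs per cell, against 10399 and 10738 in mature DCs and 7677 and 6981 in B cells. In DCIR2 cDC2s, Lta stood at 0.138 and 3.83 CPM, and 22 of the 23 UMIs in sample 2 came from 1 cell. Without that cell the value was 0.167 CPM. Intervals and floors given here cover counting error only.

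Within B cells, those with an Fcer2a UMI (Fcer2a encodes CD23, a follicular B-cell marker) held Lta at 32.8 and 32.7 CPM from 8 and 31 UMIs, and those without at 15.3 and 24.4 CPM from 6 and 10 UMIs. The groups do not overlap. Without the richest cell of each group they stood at 20.9 and 29.9 CPM against 8.02 and 17.7 CPM, again without overlap, and no test was made on 2 samples. Within T cells, those with Cd4 alone held 1 and 10 Lta UMIs (6.43 and 23.1 CPM), and those with Cd8a or Cd8b1 alone held 0 and 1. In sample 2, 6 of the 10 came from 1 cell, and the level without it was 9.44 CPM.

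Ltb, which encodes the membrane-anchoring subunit of the heterotrimer, was spread much more widely than Lta. T cells held 132 and 143 CPM and B cells 133 and 124 CPM, and these ranges overlap. DCIR2 cDC2s held 123 and 124 CPM, overlapping with B cells, from 887 and 746 UMIs. These 3 classes led the order of means, and DCIR2 cDC2s lay above mature DCs in both samples.

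Mature DCs followed with 114 and 91.0 CPM, Ncr1-gated cells with 68.9 and 132 CPM, Siglech/Ccr9-gated cells with 85.3 and 68.6 CPM and CLEC10A cDC2s with 85.1 and 67.1 CPM. Each of these 4 overlaps with the next. The fall came below them, to 11.1 and 10.7 CPM in cDC1s and 2.89 and 6.53 CPM in macrophages, with no overlap at either step.

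**Figure D1:**
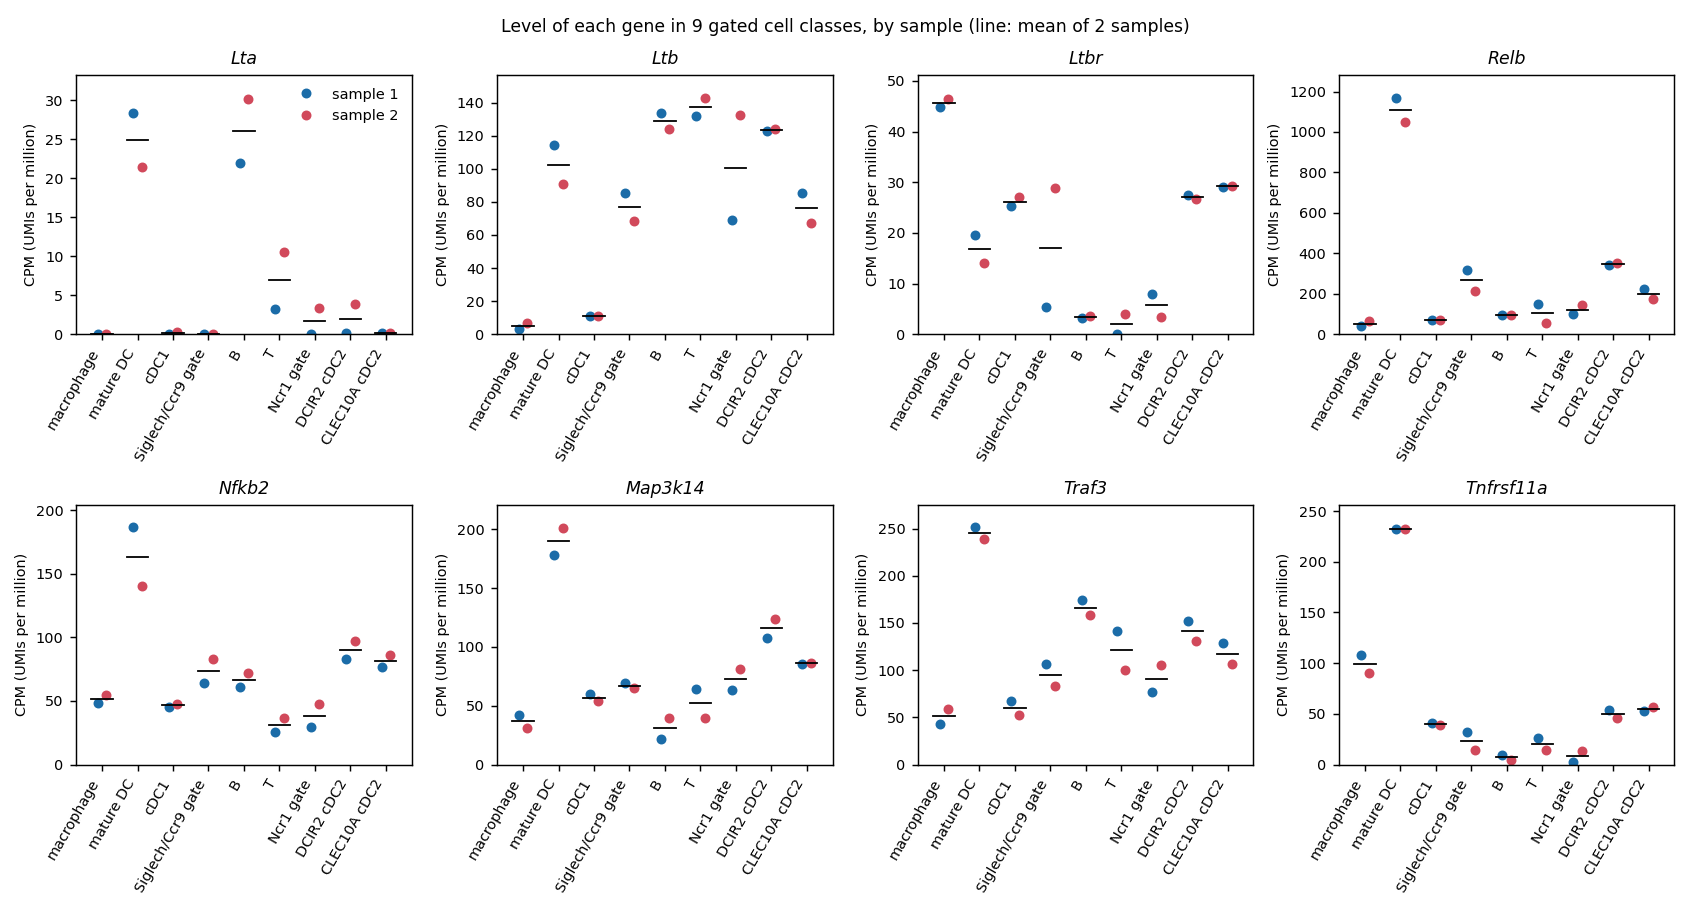
Level of the 8 genes in the 9 gated classes, in CPM on linear axes that start at 0. Points are the 2 samples and the black line is their mean. Lta is high in B cells and mature DCs, Ltb reaches 123 and 124 CPM in DCIR2 cDC2s, Ltbr is highest in macrophages at 44.8 and 46.5 CPM, and Relb is highest in mature DCs at 1167 and 1049 CPM.

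By cell, 373 of 556 and 304 of 456 DCIR2 cDC2s had an Ltb UMI, 67.1% (95% exact binomial interval 63.0 to 71.0) and 66.7% (62.1 to 71.0). In B cells the share was 56.9% and 50.6%, and in T cells 58.5% and 59.7%. These cells differ in depth, with medians of 12205 and 12094 UMIs in DCIR2 cDC2s, 7677 and 6981 in B cells and 6145 and 6490 in T cells. When each cell was thinned to 3000 UMIs the expected shares were 28.8% and 29.6% in DCIR2 cDC2s, 32.9% and 28.8% in B cells and 38.0% and 35.1% in T cells. Macrophages, at 19313 and 18136 UMIs, had Ltb in 4.44% and 9.23% of cells, or 1.09% and 1.70% when thinned, which is the lowest share of the 9 classes. The UMIs were not gathered in a few cells, since the 10 richest DCIR2 cDC2s held 10.03% and 10.19% of them.

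Lymphocyte genes did not accompany Ltb in the cDC2s. In DCIR2 cDC2s the B-cell genes Cd79b and Ms4a1 stood at 9.68 and 11.3 CPM and at 16.6 and 16.5 CPM, against 622 and 658 CPM and 1614 and 1491 CPM in B cells. The T-cell gene Trac stood at 1.52 and 1.83 CPM in DCIR2 cDC2s and at 1456 and 1399 CPM in T cells, and the NK gene Nkg7 at 0.276 and 0 CPM. DCIR2 cDC2s thus overlapped with B cells in Ltb while their Cd79b and Ms4a1 levels lay far below those of B cells in each sample.

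**Figure D2:**
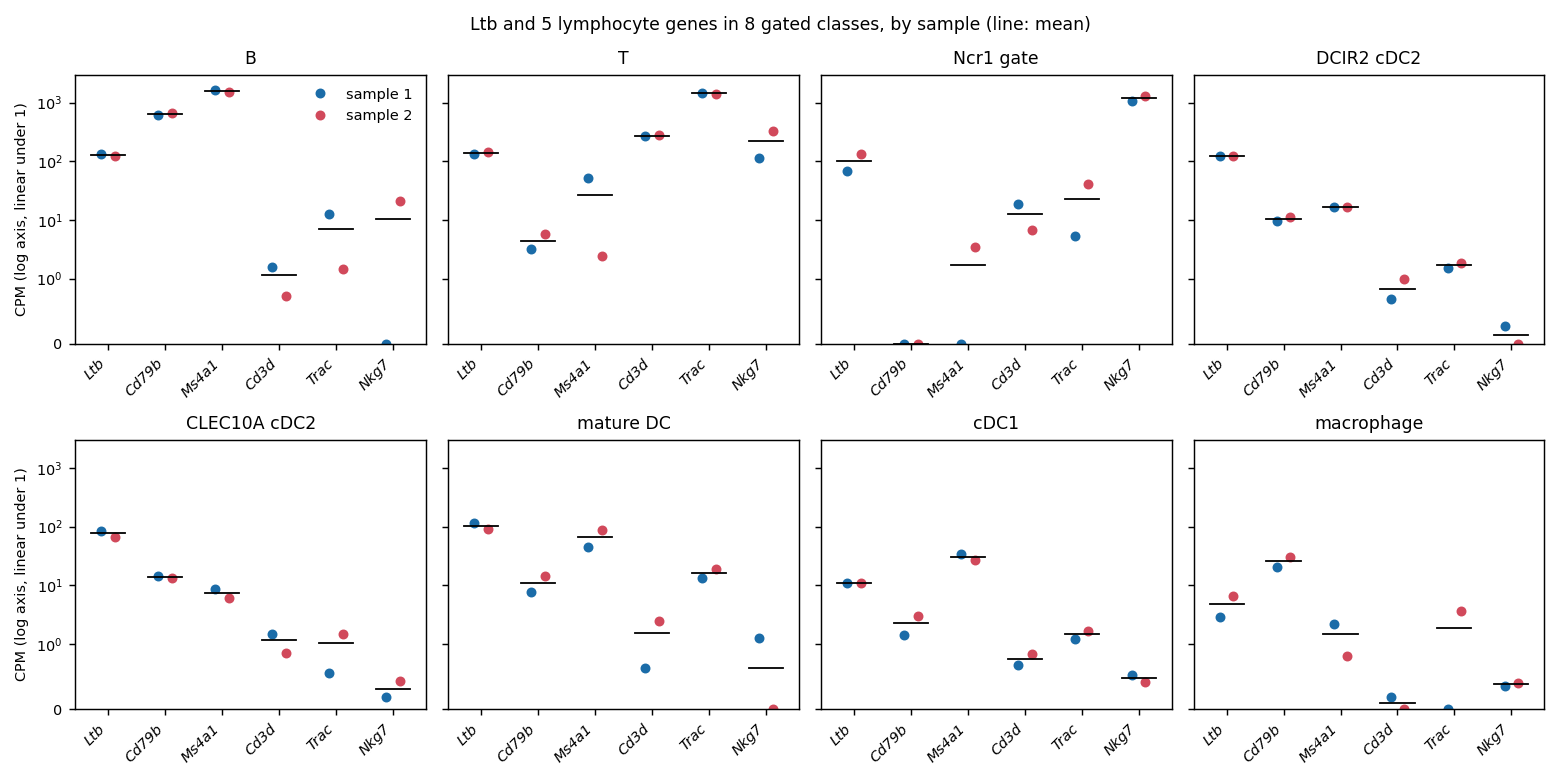
Ltb beside 5 lymphocyte genes in 8 classes, in CPM on a log axis that is linear under 1. Points are the 2 samples and lines their mean. In B and T cells a lineage gene lies above Ltb, while in DCIR2 and CLEC10A cDC2s Ltb at 67.1 to 124 CPM lies above all 5.

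Where a cell held Lta, the partner gene Ltb behaved differently in the 2 Lta-bearing classes. Of the B cells with an Lta UMI, 7 of 9 and 21 of 29 also had Ltb (77.8% and 72.4%), against 53.6% and 46.2% of the B cells without Lta. Of the mature DCs with an Lta UMI, 3 of 14 and 2 of 13 had Ltb (21.4% and 15.4%), against 53.2% and 44.4% of those without. Median depths with and without Lta were 9291 and 10767 UMIs in mature DCs of sample 1 and 15169 and 10656 in sample 2. In B cells they were 11007 and 7617 UMIs in sample 1 and 7457 and 6796 in sample 2, so B cells with Lta were deeper in both samples. The part of depth in these shares was not tested. The direction was the same in both samples of each class, and cells of a sample are not replicates, so no test was made.

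Lymphocytes (the mean of B, T and Ncr1-gated cells) were compared with myeloid cells (the mean of macrophages, mature DCs, cDC1s and both cDC2 classes) with edgeR's quasi-likelihood test on UMI sums per class and sample, with Benjamini-Hochberg adjustment over 11903 genes. Of the 8 genes, 1 was higher in lymphocytes and 5 were lower. Over all genes tested, 16.8% were higher and 25.0% lower. The median log2 fold change was -1.05 over the 8 genes and -0.08 over all genes. With UMI totals alone as the scaling, the calls over all genes turned from 1994 higher and 2974 lower to 3432 higher and 2111 lower, and the median of all genes moved by 0.24 on the log2 scale, while the 8 genes gave 6 calls again.

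Ltb was the gene that was higher, at 122 CPM in lymphocytes with a log2 fold change of 1.59 ± 0.14 (± is the SE for fold changes throughout, and adjusted p = 1.18e-08). It was higher in both samples, by 1.47 and 1.66. The myeloid classes were not alike, with Ltb means of 123 CPM in DCIR2 cDC2s, 103 CPM in mature DCs and 76.1 CPM in CLEC10A cDC2s. The means were 10.9 CPM in cDC1s and 4.71 CPM in macrophages. Lta was at 11.6 CPM on the lymphocyte side, with a log2 fold change of 3.41 ± 1.47, and missed the threshold (adjusted p = 0.0735). On the myeloid side, mature DCs had a mean of 24.9 CPM, near B cells at 26.1 CPM and above T cells at 6.90 CPM. The other myeloid classes had means of 1.98 CPM or lower, so the fold does not hold for mature DCs. Without the 1 DCIR2 cDC2 that held 22 Lta UMIs, Lta passed (4.08 ± 1.16, adjusted p = 0.00858), and it also passed with B and T cells alone on the lymphocyte side (4.56, adjusted p = 4.44e-05). These 2 alternatives were chosen after seeing the data. Of the planned ones, Lta passed in edgeR with gate thresholds doubled (adjusted p = 0.00939) and without the filter on low counts (adjusted p = 0.00636). It also passed with DESeq2 (adjusted p = 0.00036), and it missed the threshold in the other planned ones. Ltbr, Tnfrsf11a, Relb, Nfkb2 and Map3k14 were lower in lymphocytes and are described with their roles below. Traf3 differed by -0.05 ± 0.12 (adjusted p = 0.784).

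Other genes of the pathway went both ways between lymphocytes and myeloid cells, where 16.8% of all genes were higher in lymphocytes and 25.0% lower. Of 9 other NF-κB subunits and inhibitors 8 were lower in lymphocytes and 0 higher, with Rel at 366 against 661 CPM and Nfkbiz, an atypical nuclear IκB protein, at 122 against 238 CPM. Of 14 kinases and adaptors 6 were lower and 2 higher, one of them Otud7b, a deubiquitinase that acts on TRAF3 (78.9 against 19.0 CPM). Of 6 other TNF family ligands 2 were higher, Tnfsf14 (LIGHT, another LTβR ligand, 37.1 against 5.52 CPM) and Tnfsf8, and Tnf was lower. These folds do not hold for each lymphocyte class. Tnfsf14 means were 91.5 CPM in Ncr1-gated cells, 18.7 CPM in T cells and 1.11 CPM in B cells, with CLEC10A cDC2s at 14.4 CPM. Tnfsf8 stood at 3.04 CPM in B cells, below DCIR2 and CLEC10A cDC2s at 23.6 and 20.9 CPM. Tnf stood at 3.83 CPM in B cells. In T and Ncr1-gated cells its means, 28.7 and 31.4 CPM, lay above all myeloid classes but mature DCs (58.2 CPM). Of 9 receptors 4 were higher and 3 lower, and of 5 lymphotoxin target genes 3 were lower.

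B cells and T cells were compared because the study asks about B-cell LTβ and T cells are the other lymphocyte with both ligand genes. Only Nfkb2 was called, at 66.7 CPM in B cells, with a log2 fold change of 1.04 ± 0.27 (edgeR quasi-likelihood test, Benjamini-Hochberg adjusted p = 0.00965). Over all genes, 8.58% were higher in B cells and 9.17% lower. For Ltb the log2 difference was -0.08 ± 0.23 (adjusted p = 0.876), and for Lta it was 1.66 ± 0.86 (adjusted p = 0.215). Traf3, at 166 CPM in B cells, missed the threshold with 0.59 ± 0.22 (adjusted p = 0.0796) and Tnfrsf11a with -1.41 ± 0.53 (adjusted p = 0.0764). Each of these 2 passed in some alternatives, which took the count of calls to 2 or 3.

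Other TNF family ligands separated the lymphocytes where Ltb did not. Of 6 tested ligands beside the lymphotoxins, 5 were lower in B cells than in T cells, among them Cd40lg, the ligand of CD40 (0.785 against 57.1 CPM), and Tnfsf8, the CD30 ligand (3.04 against 97.7 CPM). Of 9 tested receptors, 3 were higher and 4 lower in B cells, with Tnfrsf13c, the BAFF receptor that itself signals through NIK, at 367 against 4.05 CPM and Cd40 at 89.4 against 11.3 CPM. Of 14 kinases and adaptors, 3 were higher and 2 lower, and of 9 other NF-κB subunits and inhibitors 3 were higher, including the subunit Rel at 536 against 259 CPM.

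Among the receptors, Ltbr (chromosome 6, 125306571 to 125313885, minus strand) was a myeloid transcript. Macrophages held 44.8 and 46.5 CPM, above every other class in both samples. CLEC10A cDC2s held 29.1 and 29.3 CPM, DCIR2 cDC2s 27.5 and 26.7 CPM and cDC1s 25.2 and 27.1 CPM. The CLEC10A cDC2s stood above the DCIR2 cDC2s without overlap, by a margin that the test below did not call, and the DCIR2 cDC2s and cDC1s overlapped. Mature DCs lay lower at 19.5 and 13.995 CPM, while the Siglech/Ccr9-gated cells, with 1 and 8 UMIs, spanned 5.33 to 28.9 CPM.

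Lymphocytes were at the bottom of the Ltbr order. B cells held 2 and 5 Ltbr UMIs (3.14 and 3.69 CPM), T cells 0 and 5 and Ncr1-gated cells 3 and 1, and the 3 classes overlapped. Against myeloid cells Ltbr was lower by edgeR's quasi-likelihood test, with a log2 fold change of -2.99 ± 0.28 (adjusted p = 3.36e-08). In sample 1, where T cells had 0 Ltbr UMIs, the value alone was -5.03, which depends on the prior count used for 0. Of the Ltb-positive B cells 1 of 37 and 1 of 87 had an Ltbr UMI. Of the DCIR2 cDC2s more held both ligand and receptor transcripts, with Ltbr in 85 of 373 and 79 of 304 Ltb-positive cells (22.8% and 26.0%) and in 23.5% and 21.7% of the Ltb-negative ones.

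Tnfrsf11a (chromosome 1, 105780718 to 105847981, plus strand) encodes RANK, the receptor of RANKL, which also feeds NIK. Mature DCs held 232 CPM in each sample, above all other classes. Macrophages came next with 108 and 90.1 CPM, followed by CLEC10A cDC2s with 52.4 and 57.1 CPM, DCIR2 cDC2s with 53.5 and 46.3 CPM and cDC1s with 41.4 and 38.9 CPM. The cDC2 classes overlapped with each other, and cDC1s lay below both. T cells held 25.8 and 13.8 CPM, Siglech/Ccr9-gated cells 32.0 and 14.4 CPM, Ncr1-gated cells 2.65 and 13.6 CPM and B cells 9.42 and 4.42 CPM. Lymphocytes were lower than myeloid cells by a log2 fold change of -3.30 ± 0.21 (edgeR quasi-likelihood test, adjusted p = 7.52e-11).

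Map3k14 (chromosome 11, 103219762 to 103267472, minus strand) encodes NIK, the kinase on which the pathway turns. Mature DCs held 178 and 201 CPM and DCIR2 cDC2s 108 and 124 CPM, with no overlap between them. CLEC10A cDC2s followed at 85.9 and 86.3 CPM, below DCIR2 cDC2s in both samples. The remaining classes ranged from 81.5 CPM in Ncr1-gated cells of sample 2 to 21.98 CPM in B cells of sample 1, and B cells at 21.98 and 39.8 CPM were last, overlapping with macrophages at 42.3 and 31.0 CPM. Lymphocytes were lower than myeloid cells by a log2 fold change of -1.04 ± 0.14 (adjusted p = 3.25e-06, edgeR). The fold does not hold for each class, since Ncr1-gated cells, at 63.6 and 81.5 CPM, lay above cDC1s and macrophages in both samples. The gene overlaps the transcript model 1700028N14Rik, and the sources used here do not say whether the counting used strand, so reads of the pair cannot be told apart.

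Traf3 (chromosome 12, 111166370 to 111267153, plus strand), the brake on NIK, had another order. Mature DCs again came first with 252 and 239 CPM, but B cells came second with 174 and 158 CPM, ahead of DCIR2 cDC2s with 153 and 131 CPM. Each of these steps was without overlap. T cells (142 and 100 CPM) overlapped with both cDC2 classes, while the CLEC10A cDC2s (129 and 106 CPM) lay below the DCIR2 cDC2s in both samples. The cDC1s (67.7 and 52.7 CPM) and macrophages (42.7 and 59.1 CPM) were last. B cells were thus last of the 9 classes for Map3k14 and second for Traf3. The gene overlaps the model 4930595D18Rik.

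Relb (chromosome 7, 19606217 to 19629438, minus strand) encodes the transactivating partner of p52. Mature DCs held 1167 and 1049 CPM, and a Relb UMI was found in 134 of 138 and 169 of 173 of them. DCIR2 cDC2s came next with 342 and 350 CPM and a UMI in 82.6% and 84.6% of cells. Siglech/Ccr9-gated cells with 320 and 213 CPM overlapped with CLEC10A cDC2s at 222 and 173 CPM.

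The remaining Relb levels were low. Ncr1-gated cells held 98.1 and 143 CPM and lay above B cells at 92.6 and 96.6 CPM. The cDC1s at 68.9 and 71.2 CPM and the macrophages at 39.1 and 63.6 CPM had the lowest means. T cells, at 151 and 56.2 CPM, spread widely and overlapped with all 4 of these classes. Macrophages and cDC1s are the deepest classes, with medians between 18136 and 20952 UMIs per cell, and had a Relb UMI in 31.7% to 47.7% of cells. Lymphocytes were lower than myeloid cells by a log2 fold change of -1.21 ± 0.16 (edgeR quasi-likelihood test, adjusted p = 3.14e-06). This fold does not hold for cDC1s and macrophages, with means of 70.1 and 51.3 CPM. The means of B, T and Ncr1-gated cells, 94.6, 104 and 120 CPM, lay above both.

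Nfkb2 (chromosome 19, 46304320 to 46312385, plus strand) encodes p100, the precursor of p52. It was highest in mature DCs at 187 and 140 CPM, without overlap with the classes behind them. DCIR2 cDC2s followed at 83.2 and 97.1 CPM and CLEC10A cDC2s at 76.5 and 86.1 CPM. Siglech/Ccr9-gated cells held 64.0 and 83.1 CPM and B cells 61.2 and 72.2 CPM. From DCIR2 cDC2s down to B cells, neighbors in this order overlapped. Macrophages, below B cells without overlap, held 48.3 and 55.1 CPM and cDC1s 45.7 and 47.5 CPM. Ncr1-gated cells held 29.2 and 47.5 CPM and T cells 25.8 and 36.6 CPM. Against myeloid cells lymphocytes were lower by -1.06 ± 0.13 on the log2 scale (adjusted p = 2.21e-06, edgeR). The fold does not hold for B cells against macrophages and cDC1s, which lay below B cells in both samples. The gene overlaps AC114539.1 and the 3′ neighbor Psd, both on the other strand.

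The promoters of Nfkb2 and Traf3 are shown because they hold letters of a κB-type motif. RefSeq promoter sequences (GRCm38.p6, 250 bases before to 50 bases after a start site) were matched for 7 of the 8 genes, 9 promoters in all, and not for Relb. They were searched on both strands for GGGNNTTCC. Nfkb2 held 3 hits at one of its 3 starts, of which the 2 that begin 39 and 38 bases upstream of the start overlap as the strands of 1 palindrome, and the other begins 10 bases upstream. Traf3 held 1 hit, 9 bases upstream. The other 7 promoters held none, among them those of Lta, Ltb, Map3k14 and Tnfrsf11a, which also rose in mature DCs. Only this spacing of letters was searched, and gggactttcc in the other Nfkb2 promoters is not a match to it. Of all 32851 RefSeq mouse promoters 5.82% hold the searched letters and 0.274% hold at least 2 hits. The 250 bases before each start follow, with the letters of the hits in capitals, for Nfkb2 at chr19:46304487-46304736 and for Traf3 at chr12:111166120-111166369, both on the plus strand.
Nfkb2: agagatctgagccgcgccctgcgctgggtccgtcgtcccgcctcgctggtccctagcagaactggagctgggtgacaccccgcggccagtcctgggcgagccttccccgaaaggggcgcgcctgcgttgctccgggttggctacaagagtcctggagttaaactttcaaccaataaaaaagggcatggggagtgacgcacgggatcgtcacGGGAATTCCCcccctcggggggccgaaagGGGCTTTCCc
Traf3: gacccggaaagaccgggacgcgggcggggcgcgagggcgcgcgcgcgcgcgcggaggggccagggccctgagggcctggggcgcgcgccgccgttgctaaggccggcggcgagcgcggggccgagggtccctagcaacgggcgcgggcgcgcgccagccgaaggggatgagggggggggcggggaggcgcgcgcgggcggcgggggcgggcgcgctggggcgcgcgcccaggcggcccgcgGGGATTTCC

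Mature DCs, which express Ccr7 and Fscn1 after activation or homeostatic maturation, were compared with the mean of the 3 resident cDC classes. By edgeR's quasi-likelihood test 7 of the 8 genes were higher in mature DCs and 1 was lower, where 17.5% of all genes were higher and 15.9% lower. The median log2 fold change was 1.29 over the 8 genes and -0.05 over all genes. These genes span both ligands, RANK, NIK and its inhibitor, and both NF-κB subunits, and the exception was the receptor Ltbr.

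Relb rose most of the intracellular genes, with a log2 fold change of 2.75 ± 0.16 (adjusted p = 6.73e-11), 2.77 in sample 1 and 2.73 in sample 2. Tnfrsf11a rose by 2.31 ± 0.13 (adjusted p = 4.09e-11). Nfkb2, Map3k14 and Traf3 rose to like extents, by 1.26 ± 0.13, 1.24 ± 0.14 and 1.33 ± 0.13, with adjusted p-values between 1.77e-07 and 6.06e-07. In these 5 genes mature DCs lay above every resident class in both samples.

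The ligand genes rose as well. Ltb rose by 1.16 ± 0.16 (adjusted p = 1.14e-05), although the DCIR2 cDC2s alone, at 123 and 124 CPM, stood above the mature DCs at 114 and 91.0 CPM. Lta rose with a fitted log2 fold change of 5.96 ± 0.63 (adjusted p = 7.97e-07), or 7.08 ± 0.50 without the 1 Lta-rich DCIR2 cDC2, and since resident cDCs are near 0 the size depends on the prior count of the fit. Ltbr fell by -0.69 ± 0.23 (adjusted p = 0.0258), and among cells that passed only 1 gate it was at -0.47 and no longer called (adjusted p = 0.16).

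Lymphocyte genes were present beside the ligand genes in mature DCs, with Cd79a at 0 and 68.5 CPM, Ms4a1 at 44.1 and 88.5 CPM and Trbc2 at 10.7 and 54.5 CPM. With only cells of exactly 1 gate, which leaves out mature DCs that also pass a lymphocyte gate, Lta stood at 26.4 ± 15.2 CPM and Ltb at 91.1 ± 23.5 CPM in mature DCs. Both remained higher than in resident cDCs there, by 5.92 ± 0.68 (edgeR adjusted p = 2.04e-06) and 1.09 ± 0.18 (adjusted p = 7.29e-05) on the log2 scale.

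**Figure D3:**
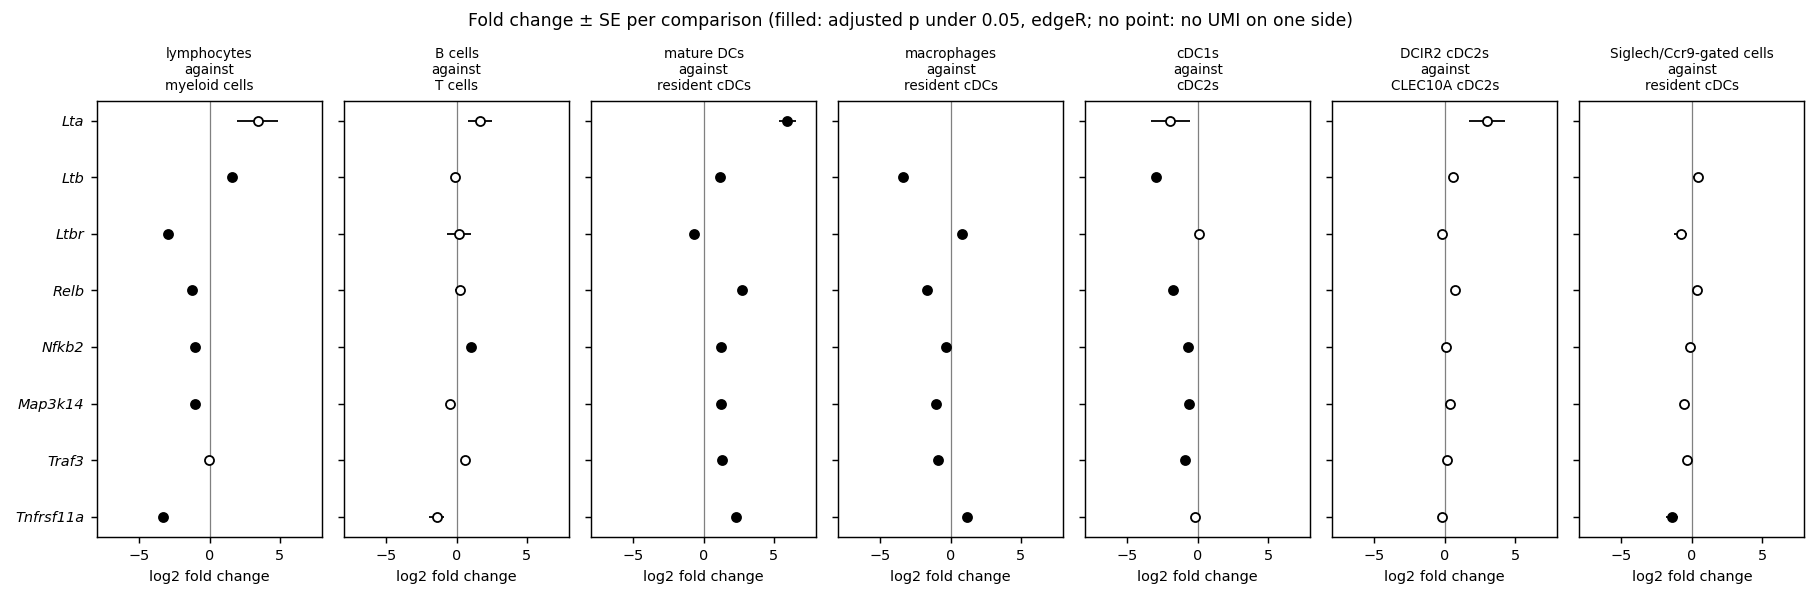
Log2 fold change of the 8 genes in 7 comparisons between classes, with bars of 1 SE from edgeR. Filled points passed an adjusted p of 0.05 and open points did not, and Lta has no point where a side holds 0 UMIs. In mature DCs against resident cDCs 7 filled points lie right of 0 and Ltbr left of it.

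Other genes of the pathway moved the same way in mature DCs. Of 14 kinases and adaptors 9 were higher and 0 lower, among them Birc2, a ubiquitin ligase of the NIK-degrading complex (403 against 59.0 CPM, log2 2.85 ± 0.12), and Traf1 (866 against 213 CPM, 2.12 ± 0.15). Of 9 further NF-κB subunits and inhibitors 8 were higher and 0 lower, among them Rel at 1303 against 618 CPM and the inhibitor Nfkbia at 885 against 320 CPM. Of 9 tested TNF family receptors 5 were higher and 1 lower, with Tnfrsf4, which encodes OX40, at 59.6 against 1.73 CPM. All 5 tested members of a list of 11 lymphotoxin target genes were higher, including the chemokine gene Ccl22 at 153 against 5.53 CPM and Icam1 at 485 against 174 CPM. The other 6 list members, Madcam1 and the chemokine genes Ccl17, Ccl19, Ccl21a, Cxcl12 and Cxcl13, were too low to be tested. Ccl22 is also on the list of mature DC markers used to check the classes, and a response to lymphotoxin was not tested. Of 6 ligands 2 were higher and 1 lower, with Tnf at 58.2 against 23.5 CPM.

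The mature DCs were not uniform. Those with an Il12b or Ccl22 UMI (33 and 56 cells), 2 genes of activated DCs, held Ltb at 44.7 and 18.9 CPM, while the others (105 and 117 cells) held it at 138 and 129 CPM. For Lta the levels were 49.7 and 30.5 CPM with and 21.1 and 16.8 CPM without, from 20 and 21 UMIs in 4 and 8 cells against 25 and 22 UMIs in 10 and 5 cells. In sample 1, 14 of the 20 UMIs came from 1 cell. Without the richest cell of each group, Lta stood at 15.2 and 23.7 CPM with and 16.1 and 9.21 CPM without, so its direction in sample 1 turned, and no direction is read for it. Ltb stood at 33.1 and 16.5 CPM against 132 and 116 CPM when treated the same way, and its groups did not overlap in either case.

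The split also separated 4 of the other genes without overlap, read over all cells. Tnfrsf11a stood at 430 and 311 CPM with Il12b or Ccl22 and at 165 and 191 CPM without. Map3k14 stood at 286 and 252 CPM against 142 and 175 CPM. Traf3 stood at 311 and 310 CPM against 232 and 203 CPM, and Relb at 1322 and 1183 CPM against 1114 and 979 CPM. Nfkb2 (244 and 153 CPM against 167 and 134 CPM) and Ltbr (14.9 and 13.1 CPM against 21.1 and 14.5 CPM) overlapped. With 2 samples a side this is a description, with no test.

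**Figure D4:**
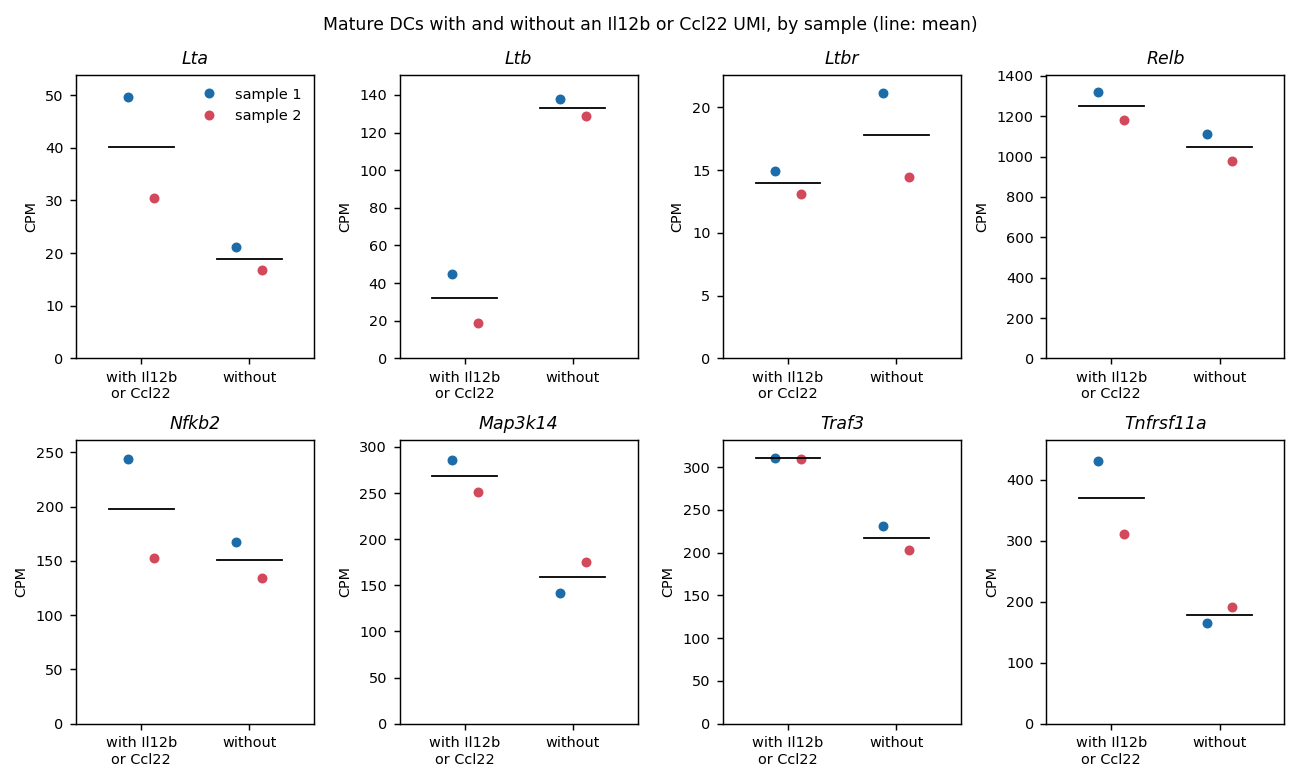
The 8 genes in mature DCs with and without an Il12b or Ccl22 UMI, in CPM on linear axes that start at 0. Points are the 2 samples and lines their mean. Ltb is at 44.7 and 18.9 CPM with these transcripts and at 138 and 129 CPM without, while Map3k14, Traf3, Tnfrsf11a and Relb are higher with them. The Lta point at 49.7 CPM rests on 1 cell and is 15.2 CPM without it.

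Macrophages were compared with the same resident cDCs. Their leading markers were genes known from red pulp macrophages, with Slc40a1 at 6660 and 5320 CPM, Hmox1 at 5084 and 4956 CPM and Spic at 1980 and 1939 CPM, so the class is not read as one of MMMs. Here 2 of the 8 genes, both receptors, were higher and 5 were lower by edgeR's quasi-likelihood test, where 27.7% of all genes were higher and 26.1% lower. Ltbr was higher by a log2 fold change of 0.81 ± 0.16 (adjusted p = 0.000281), with 0.81 in each sample alone, and Tnfrsf11a by 1.14 ± 0.14 (adjusted p = 5.93e-07). The median was -0.99 over the 8 genes and -0.02 over all genes. Lta is not compared, since macrophages hold 0 UMIs.

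The ligand gene and the intracellular genes were the lower ones. Ltb fell by -3.42 ± 0.26 (adjusted p = 8.92e-10), Relb by -1.68 ± 0.22 (adjusted p = 1.63e-06) and Map3k14 by -1.06 ± 0.16 (adjusted p = 1.22e-05). Traf3 fell by -0.93 ± 0.16 (adjusted p = 4.59e-05), though by -1.27 in sample 1 and -0.54 in sample 2 alone. Nfkb2 fell by -0.37 ± 0.14 (adjusted p = 0.0348) and missed the threshold in 4 alternatives. These 2 falls, against the mean of the resident classes, do not hold against cDC1s alone. Nfkb2 stood at 48.3 and 55.1 CPM in macrophages, above cDC1s at 45.7 and 47.5 CPM. Traf3 overlapped, at 42.7 and 59.1 CPM in macrophages and 67.7 and 52.7 CPM in cDC1s. The erythroid markers that stood at 3707 and 907 CPM in macrophages moved with this comparison, and their part in it was not tested.

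Around the 8 genes, the macrophages were lower in the canonical subunits too, with Rel at 148 against 618 CPM and Nfkb1 at 157 against 486 CPM. Of 9 NF-κB subunits and inhibitors 2 were higher and 5 lower, and of 14 kinases and adaptors 4 were higher and 5 lower. Traf1 was lower (14.6 against 213 CPM), while Otud7b was higher (35.9 against 8.38 CPM) and so was Tnfaip3, which encodes A20 (239 against 111 CPM). Of 9 receptors 3 were higher and 4 lower, with Cd40 at 9.60 against 59.5 CPM and Tnfrsf1b at 159 against 75.4 CPM. Of the 5 tested lymphotoxin target genes 2 were higher, Bcl2l1 and Icam1, and of 6 ligands 3 were lower.

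The study takes cells with Siglec1, which encodes CD169, as MMMs. Macrophages with a Siglec1 UMI (112 and 56 cells) and without (181 and 74 cells) gave no call among the 8 genes, where 0.0083% of all 12049 genes tested were called, 1 gene in either direction. At an unadjusted p of 0.05, 471 genes passed, and DESeq2 called 8, none of them among the 8 genes. Ltbr stood at 46.0 ± 1.89 CPM with Siglec1 and 45.5 ± 3.48 CPM without, a log2 difference of 0.02 ± 0.23. Tnfrsf11a differed by -0.26 ± 0.21 and Nfkb2 by -0.22 ± 0.22. A Siglec1 UMI is easily missed in a cell, and the split may mix the groups.

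The cDC1s were compared with the mean of both cDC2 classes, since LTβR signaling is described for the latter. None of the 8 genes was higher in cDC1s and 5 were lower by edgeR's quasi-likelihood test, where 18.6% of all genes were higher and 17.3% lower. Ltb was lower by a log2 fold change of -2.98 ± 0.19 (adjusted p = 1.24e-10) and Relb by -1.73 ± 0.21 (adjusted p = 1.17e-06). Traf3 was lower by -0.93 ± 0.15, Nfkb2 by -0.71 ± 0.14 and Map3k14 by -0.64 ± 0.15, with adjusted p-values from 4.63e-05 to 0.00181. The receptors were not called, with Ltbr at 0.07 ± 0.17 (adjusted p = 0.801) and Tnfrsf11a at -0.21 ± 0.15 (adjusted p = 0.305). Lta stood at 0.127 CPM in cDC1s and is not compared.

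The median was -0.82 over the 8 genes and 0.01 over all genes. With UMI totals alone as the scaling, the calls over all genes were 1533 higher and 2940 lower instead of 2216 and 2058, and the same number of members, 5, was called. Of 9 NF-κB subunits and inhibitors, 7 were lower and 1 higher in cDC1s, with Bcl3, a p52-binding coactivator, at 15.4 against 84.8 CPM and Nfkb1 at 195 against 631 CPM. Of 14 kinases and adaptors 8 were lower and 2 higher, and 3 of 6 ligands and 3 of 9 receptors were lower with 0 higher, among them Tnfrsf13b, the receptor TACI, at 6.50 against 62.4 CPM. Of the 5 tested lymphotoxin target genes 3 were higher and 1 lower, with Cd83 at 870 against 636 CPM.

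Langerin+ cDC1s (a Cd207 UMI, 116 and 113 cells) and Langerin-negative cDC1s (568 and 457 cells) gave no call among the 8 genes, where 0.232% of all genes were called. At an unadjusted p of 0.05, 643 genes passed, and DESeq2 called 55, none of them among the 8 genes. Ltbr stood at 25.1 ± 1.88 CPM and 26.5 ± 2.16 CPM, a log2 difference of -0.01 ± 0.22. Ltb, at 6.90 to 8.04 CPM with Langerin and 11.5 to 12.03 CPM without, differed by -0.58 ± 0.31 (edgeR adjusted p = 0.976). Relb, Nfkb2, Map3k14, Traf3 and Tnfrsf11a differed by at most 0.15 on the log2 scale with SEs of 0.19 to 0.25.

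Between the 2 cDC2 classes, 0 of the 8 genes passed, where 1.76% of all genes were higher in DCIR2 cDC2s and 3.7% lower by edgeR's quasi-likelihood test. At an unadjusted p of 0.05, 1984 genes passed, and DESeq2 called 1 of the 8. Ltb and Relb were nearest, with log2 fold changes of 0.62 ± 0.18 (adjusted p = 0.0503) and 0.73 ± 0.22 (adjusted p = 0.0597). Ltb was higher in DCIR2 cDC2s by 0.45 and 0.81 in the 2 samples and Relb by 0.55 and 0.94, and the levels did not overlap.

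Both genes passed in part of the alternatives, so their calls are not settled at this number of samples. With the sample as a block, Ltb had an adjusted p of 0.00835 with the same fold change of 0.62. Map3k14 differed by 0.35 ± 0.17 (adjusted p = 0.307), and Nfkb2, Traf3, Ltbr and Tnfrsf11a by between -0.21 and 0.19. With UMI totals alone the split of calls over all genes was 323 higher and 380 lower instead of 209 and 441. Lta is not compared, since it rests on 1 cell. Of the 5 pathway lists, the 1 call was the ligand Tnfsf9, at 7.69 CPM in DCIR2 and 26.8 CPM in CLEC10A cDC2s.

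The Siglech/Ccr9-gated cells were compared with the resident cDCs on 13 and 19 cells. Tnfrsf11a, at 32.0 and 14.4 CPM, was lower by a log2 fold change of -1.41 ± 0.42 (edgeR quasi-likelihood test, adjusted p = 0.0363), and by -0.90 in sample 1 and -1.94 in sample 2 alone. It was the only call among the 8 genes, where 4.55% of all genes were higher and 6.69% lower, and it rests on 6 and 4 UMIs. The median was -0.47 over the 8 genes and -0.24 over all genes, and the latter moved by 0.15 with DESeq2's size factors and by 0.26 with UMI totals. The split of all calls turned from 541 higher and 796 lower to 658 and 463 and to 787 and 339, and under both scalings Tnfrsf11a was no longer called. With the sample as a block it had an adjusted p of 0.0513. Relb differed by 0.36 ± 0.26 and Ltb by 0.43 ± 0.31, neither called. Of the pathway lists, 1 ligand (Tnfsf9), 1 kinase and 2 subunits were higher and 1 receptor, 2 kinases and adaptors and 3 target genes lower, with Bcl3 at 179 against 61.6 CPM.

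Across the 18 sums of 9 classes and 2 samples, Relb tracked Map3k14 with a Pearson r of 0.87 in log2(CPM + 1), and Nfkb2 with 0.78. Ltb and Ltbr ran against each other with r = -0.59. These points share their libraries and come in pairs from the same class, so the values are descriptions with no p. Of 9295 genes of at least 20 CPM in some class, those most like each gene were Prr14 for Lta (0.92), Kmt2c for Ltb (0.95), Tlr2 for Ltbr (0.90), Ddhd1 for Tnfrsf11a (0.88), Tbc1d4 for Map3k14 (0.92), Phf21a for Traf3 (0.89), Nub1 for Relb (0.95) and Grb2 for Nfkb2 (0.92). The next in order were Mdm2, Akap13, Atp7a, Spr, Adap1, Man1a, Stard7 and Zbtb18, with r between 0.86 and 0.94.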

How the data were processed

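Splenic CD11c+ cells of wild-type mice were measured by scRNA-Seq in 2 samples of 1 run. Other sample tags of that run were not analysed here. The deposited tables hold UMI counts per cell and gene, which the authors made with the BD Rhapsody WTA pipeline 1.12.1 (GRCm38, per the file headers and labels), with its correction of UMI errors. The submitters' processing notes name R 4.2.3 and Seurat 4.3.0.1.

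From these counts, cells with at least 200 genes and within 3 median absolute deviations (scaled by 1.4826) of the mean of genes, UMIs and percent mitochondrial UMIs were kept, and gated as the report states. Scrublet (scanpy 1.11.5) called 36 and 31 doublets, which were kept and left out as an alternative. UMIs were summed per class and sample, classes under 10 cells in a sample were dropped, and the 14 gate genes were left out of the tests. edgeR 4.0.16 (TMM, filterByExpr, quasi-likelihood test, Benjamini-Hochberg threshold 0.05) was fitted to 18 sums, or to 22 with macrophages and cDC1s split, with R 4.3.3. Fold changes are first side minus second side. DESeq2 1.42.0 was an alternative. Simulated data with known changes were put through the same functions beforehand as a check.

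The 8 members, the gates and the lists were chosen with earlier results of these data known. All members are named in every comparison, and of each pathway list the 3 genes with the largest fold change among those called, moving the same way in both samples and reaching 20 CPM, of which the text gives part. Likeness names come from Pearson's r over the sums. Sums with the same sample number come from the same sample, so they are paired by source. Their deviations from class means correlated at 0.0232 to 0.314 over the comparisons. The main fits have no block, and the fit with it is given where it changed a call. Coordinates are from GENCODE on GRCm38 and promoters from RefSeq.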

Additional observations from a re-analysis of the deposited data

How the results depend on the processing

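Across the alternatives no call among the 8 genes changed direction. The counts of called members stayed within 1 of the main count for lymphocytes against myeloid cells (6 to 7), mature DCs (7 to 8), macrophages (6 to 7) and cDC1s (5). For B cells against T cells, with 1 call, the count was 3 with all deposited cells and 2 with cells of exactly 1 gate, without Scrublet doublets, with gate thresholds doubled, without the filter on low counts and with DESeq2. For DCIR2 against CLEC10A cDC2s, with 0 calls, it was 2 with all deposited cells, with cells of exactly 1 gate, with gates doubled, with UMI totals alone and without B cells rich in Jchain, 1 with DESeq2 size factors and with DESeq2, and 3 without the filter, and the genes called over all were 1106 with cells of exactly 1 gate and 982 without the filter instead of 650. For Siglech/Ccr9-gated cells, with 1 call, it was 0 with DESeq2 size factors, UMI totals, DESeq2 and without B cells rich in Jchain, and the class fell under 10 cells and gave no value with cells of exactly 1 gate (4 and 7 cells) or gates doubled (7 and 8 cells). For Siglec1, the genes called over all were 13 with all deposited cells, 0 with cells of exactly 1 gate and without Scrublet doublets, 65 without the filter and 8 with DESeq2, instead of 1. For Langerin they were 12 with cells of exactly 1 gate, 3 with gates doubled, 174 without the filter and 55 with DESeq2, instead of 28. The cause was not tested. With the replicate block, the count was 1 for DCIR2 cDC2s (Ltb) and 0 for Siglech/Ccr9-gated cells, and no other call of the 8 genes changed. Leaving out a sample leaves no residual degrees of freedom, so only fold changes per sample are given. The alternatives without the Lta-rich cell, without B cells with at least 10 Jchain UMIs and without Ncr1-gated cells, and the levels without Scrublet doublets or without the richest cell of a subset, were chosen after seeing the data. Lta, with 0 to 45 UMIs per class and sample, and the 13 to 41 cells of the smallest classes limit what this depth can show.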
